A study of Rattus norvegicus with 28 samples.

Results

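Protein kinase A (PKA) is among the effectors through which cAMP, the messenger raised by GLP-1 receptor agonists, acts on beta cells. In its resting form a pair of regulatory subunits holds a pair of catalytic subunits inactive, and cAMP binding to the regulatory subunits frees the catalytic ones. The protein kinase inhibitor (PKI) proteins bind free catalytic subunits as a pseudosubstrate, block them and carry them out of the nucleus. In beta cells the kinase is known for enhancing glucose-stimulated insulin release and for phosphorylating CREB, the factor that turns on cAMP-responsive genes.

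The 9 genes described here are the catalytic subunits Prkaca and Prkacb, the type I regulatory subunits Prkar1a and Prkar1b, the type II regulatory subunits Prkar2a and Prkar2b, and the inhibitors Pkia, Pkib and Pkig. They were taken by symbol from a table of 17455 symbols, with the transcript of highest mean level standing for each symbol. All 9 were found, and all 9 passed a filter of 1 TPM (transcripts per 1e6) on the mean over libraries, as did 10275 genes in all. TPM is a level per transcript length, so levels can be set side by side between genes.

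RNA-seq was performed on the rat insulinoma line INS-1, either WT or with the S983A allele of Med14 knocked in at the gene. Med14 is the backbone subunit of Mediator, the complex that carries signals from transcription factors to the polymerase. Cells of both genotypes were moved to serum-free medium and were left untreated (CON) or exposed for 1, 8 or 16 h to 10 nM Exendin-4 (Ex-4), a GLP-1 receptor agonist, or to forskolin (FSK) at 10 µM, a direct activator of adenylyl cyclase. These 14 groups had 2 libraries each, 28 in all. The study made its Med14 S983A lines by CRISPR editing and sorting of single cells, and its methods name a pair of independently derived lines. The labels do not say from which line a library came, so the Med14 S983A libraries of a group may be of the same line or of different lines, and an effect of the substitution and a property of a clone cannot be told apart below. The study's methods speak of biological replicates without saying whether the libraries of a group came from separate cultures, and nothing in the labels says so. The p-values measure the spread between these libraries, which may in part be technical.

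The libraries held 38542741 to 51811415 fragments over the transcripts kept, apart from 83715750 in the second Med14 S983A library at 8 h of FSK. As whole-cell bulk RNA was measured, fewer cells expressing a gene and less transcript per cell cannot be told apart. Of 10 beta cell markers, 9 were in the table and had means of at least 1 TPM, with Ins1 at 33716 to 67834 TPM. Delta cell, PP cell, acinar and endothelial markers summed to at most 0.699 TPM in any library. Of the alpha cell markers, Irx2 was at 0 in every library, while Gcg ranged from 165 to 1345 TPM in the 14 WT libraries and from 6.09 to 113 TPM in the 14 Med14 S983A libraries. Gcg thus moved with genotype and with treatment, and the beta cell markers went both ways with genotype. Ins2 was 1080 to 2991 TPM in WT and 6719 to 37516 TPM in Med14 S983A, whereas Slc2a2, the glucose transporter, was 228 to 591 TPM in WT and 23.8 to 76.2 TPM in Med14 S983A. The fibroblast markers Col1a1 and Pdgfra summed to 0.919 to 1.99 TPM in WT and 1.47 to 4.07 TPM in Med14 S983A, and the leukocyte markers to at most 1.75 TPM. Med14 itself had 20.9 ± 0.883 TPM in WT CON and 19.9 ± 0.504 TPM in Med14 S983A CON (SD, n = 2), which does not check the labels since a single residue was changed.

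Promoter sequence is shown for Prkacb and Pkib, the members with the widest range of levels in these libraries, and for Prkaca, which held the most copies of the CREB half-site. RefSeq windows on the GRCr8 build, from 250 bases before a start to 50 after it, matched 7 of the 9 genes, with 10 windows. Prkar2a and Pkia had no entry. The motifs searched, on both strands, were the full cAMP response element TGACGTCA, its half-site of letters TGACG, which reads as CGTCA from the other strand and lies within every full element, and the AP-1 site TGANTCA. Capitals mark half-sites, and only the 250 bases before the start are printed, 5′ to 3′ in the direction of the gene.
Prkaca (chr19:41083190-41083439, minus strand): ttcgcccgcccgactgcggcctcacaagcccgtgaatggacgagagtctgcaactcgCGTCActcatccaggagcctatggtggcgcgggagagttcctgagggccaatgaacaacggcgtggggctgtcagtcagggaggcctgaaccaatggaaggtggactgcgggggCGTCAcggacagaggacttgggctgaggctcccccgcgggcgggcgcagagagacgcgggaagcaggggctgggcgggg
Prkacb (chr2:238386316-238386565, minus strand): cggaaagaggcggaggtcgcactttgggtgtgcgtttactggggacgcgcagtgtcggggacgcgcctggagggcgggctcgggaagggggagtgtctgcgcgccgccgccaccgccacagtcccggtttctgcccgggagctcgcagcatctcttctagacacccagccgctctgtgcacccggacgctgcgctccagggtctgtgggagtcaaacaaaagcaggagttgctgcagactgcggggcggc
Pkib (chr20:37513082-37513331, plus strand): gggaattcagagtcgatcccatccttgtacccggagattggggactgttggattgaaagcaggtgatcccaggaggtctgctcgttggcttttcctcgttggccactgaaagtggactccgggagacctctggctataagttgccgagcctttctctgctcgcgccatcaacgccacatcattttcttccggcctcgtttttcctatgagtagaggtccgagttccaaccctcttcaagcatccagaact

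The full element was in 0 of the 10 windows and in 1.83% of 33469 rat promoter windows of the same length. The half-site was in 3 windows and in 21.2% of all windows. Prkaca held 2 of them, at positions −193 and −79 from the start, Prkacb held 1 at position 26 past the start, outside the printed stretch, and the third of 3 Pkig windows held 1 at position −227. The AP-1 site was in 0 of the 10 windows and in 7.33% of all windows. These counts say only which letters are in these windows.

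In resting WT cells the type I regulatory transcripts were the most abundant of the family. Prkar1a (NM_013181, rn6 chromosome 10, 97940705 to 97957336, plus strand, 1413 exonic bases) had 484 and 476 TPM in the WT CON libraries, and Prkar1b (NM_001033679, chromosome 12, 17614565 to 17713556, plus strand), the neuronal type I form, had 231 and 224 TPM. Next came the ubiquitous catalytic gene Prkaca (NM_001100922, chromosome 19, 25095089 to 25118867, plus strand) at 217 ± 0.934 TPM (SD, n = 2) and its paralog Prkacb (NM_001077645, chromosome 2, 252605307 to 252691886, minus strand) at 101 ± 9.23 TPM. The inhibitor Pkig (NM_153469, chromosome 3, 160047296 to 160115177, plus strand) stood at 64.6 ± 1.70 TPM. The remaining 4 genes lay close together between 32.7 and 40.9 TPM: Prkar2b (NM_001030020, chromosome 6, 51265510 to 51356383, minus strand), Prkar2a (NM_019264, chromosome 8, 117486085 to 117545564, plus strand), Pkib (NM_012627, chromosome 20, 40618128 to 40712598, plus strand) and Pkia (NM_053772, chromosome 2, 96595088 to 96668222, minus strand). Among these 4, neighbours in the order differed by less than their summed SDs. The same held in Med14 S983A CON for Pkia, Prkar2b and Prkar2a, at 28.4, 27.2 and 25.6 TPM, while Pkib was lowest at 15.1 ± 1.16 TPM. The order of the type I and catalytic genes also differed between the genotypes, with Prkaca above Prkar1b in Med14 S983A CON (199 ± 10.1 against 155 ± 4.19 TPM) and below it in WT.

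**Figure D1:**
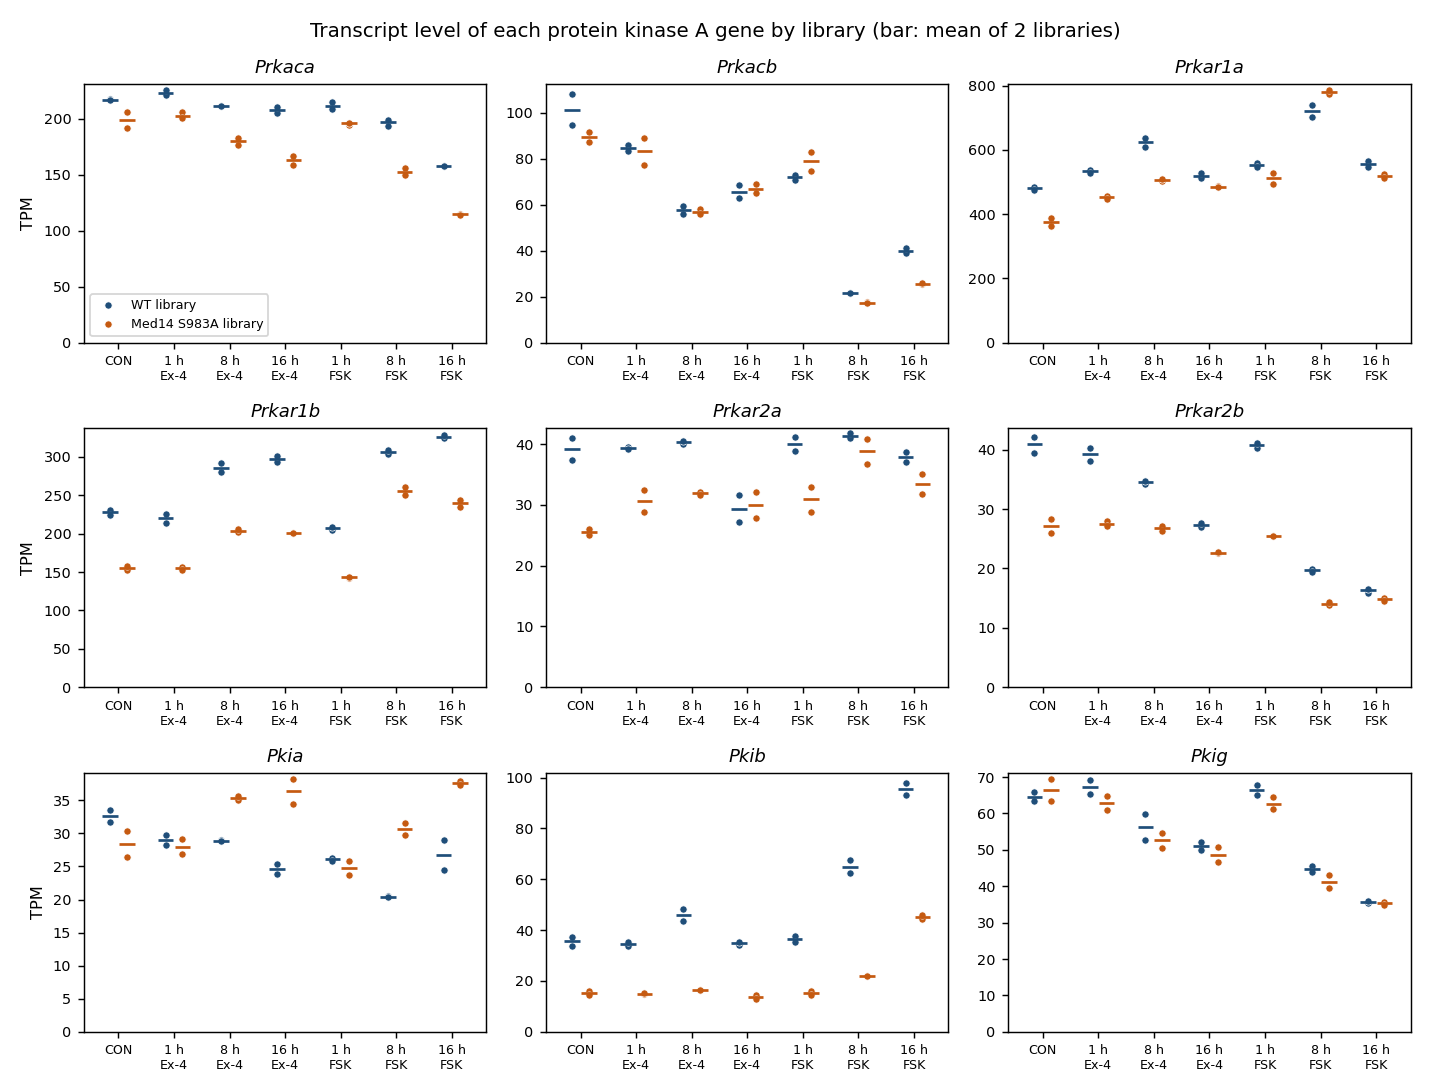
TPM of each of the 9 genes (vertical axis, starting at 0) in the 7 conditions (horizontal axis), with 1 point per library and a bar at the mean of 2 libraries, WT in blue and Med14 S983A in orange. Prkacb is lowest at 8 h of FSK in both genotypes, with all 4 libraries between 17.2 and 21.8 TPM, and Pkib is highest at 16 h of FSK.

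The first comparison asked how the transcripts of the kinase respond when cAMP is raised. Differences are in log2(TPM + 1) from limma, treated minus CON of the same genotype, and a gene was called at a change above 1.5-fold with a Benjamini-Hochberg adjusted p under 0.05 over 10275 genes. The 6 contrasts of a genotype share their CON libraries and so are not independent of each other. In WT, limma called 1 of 9 members at 8 h of Ex-4, where 9.60% of all genes were called, and 1 at 16 h, where 11.8% were. After FSK it called 5 at 8 h and 4 at 16 h, where 43.6% and 34.5% of all genes were called. In Med14 S983A it called 1 at 8 h of Ex-4 (6.30% of all genes), 5 at 8 h of FSK (46.1%) and 6 at 16 h of FSK (33.3%). At 1 h limma called 0 members with either agent, against 2.87% and 7.47% of all genes for Ex-4 and FSK in WT and 3.04% and 10.4% in Med14 S983A. At that time 3 members for Ex-4 and 4 for FSK had an unadjusted p under 0.05 in WT, and 2 and 5 did in Med14 S983A. There edgeR also called 0 and DESeq2 called 0 but for 1 member, Prkar1a at 1 h of FSK in Med14 S983A. Over the 54 pairs of a member and a WT contrast, 11 (20.4%) were called, close to the 18.3% for all genes. In Med14 S983A, 12 of 54 pairs (22.2%) were called, against 18.5% for all genes. These shares are near the background, so the results below are about single members and not about the family as a set.

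Scaling bears on these changes. The median log2 change of all genes in TPM was −0.34 at 8 h of FSK in WT and −0.28 in Med14 S983A, and scaling on the ERCC spike-in, a synthetic RNA mix added to each sample, gave −0.32 and −0.36. At 16 h of Ex-4 and of FSK in WT the TPM medians were −0.16 and −0.20, which ERCC scaling turned to 0.15 and 0.16. Changes below are in TPM, to be read relative to these medians, and where the scaling ends or makes a call of a member this is said beside it, with changes of sign among the values under 1.5-fold listed at the end.

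Prkacb was the most responsive of the catalytic and regulatory genes, and it fell. This gene encodes the beta form of the catalytic subunit, which is abundant in brain. In WT it stood at 108 and 94.7 TPM in CON, 85.9 and 83.1 at 1 h of Ex-4, 59.2 and 56.0 at 8 h, and 62.8 and 68.4 at 16 h. After FSK its WT levels were 72.8 and 70.8 TPM at 1 h, 21.6 and 21.8 at 8 h, and 38.8 and 41.0 at 16 h. Every treated WT library was thus below both CON libraries, with the lowest levels at 8 h of FSK and higher ones at 16 h. Relative to CON it fell 4.49-fold at 8 h of FSK (log2 −2.17, SE 0.06, limma adjusted p 2.51e-20) and 2.49-fold at 16 h (log2 −1.32, adjusted p 8.26e-16). With Ex-4 it fell 1.74-fold at 8 h (log2 −0.80, SE 0.06, adjusted p 1.04e-10) and 1.53-fold at 16 h (log2 −0.62, adjusted p 7.89e-09). The call at 16 h of Ex-4 was lost without replicate 1 of WT CON (1.44-fold), without replicate 1 of WT 16 h Ex-4 (1.47-fold), after median-centring (1.34-fold), with ERCC scaling (1.22-fold), with edgeR (1.39-fold) and with DESeq2 (1.36-fold), all in the same direction. At 1 h the log2 differences were −0.25 for Ex-4 (adjusted p 0.00392) and −0.49 for FSK (adjusted p 6.69e-07), both under 1.5-fold.

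The same gene fell in Med14 S983A cells. Prkacb had 91.7 and 87.1 TPM in CON, 58.0 and 55.9 at 8 h of Ex-4 and 68.9 and 65.0 at 16 h. With FSK it had 17.6 and 17.2 TPM at 8 h and 25.6 and 25.8 at 16 h. At 8 h of Ex-4 it fell by 1.56-fold (log2 −0.64, SE 0.06, limma adjusted p 7.46e-09). At 16 h of Ex-4, where limma called 0 of 9 members and 11.9% of all genes, Prkacb was at log2 −0.41 (adjusted p 4.66e-06). For that contrast 8 members had an unadjusted p under 0.05, and edgeR and DESeq2 called 0. After FSK it fell 4.91-fold at 8 h (log2 −2.30, adjusted p 5.34e-21) and 3.38-fold at 16 h (log2 −1.76, adjusted p 2.48e-18). The interaction of genotype and FSK for Prkacb was log2 −0.13 at 8 h (SE 0.09, adjusted p 0.231) and −0.44 at 16 h (SE 0.09, adjusted p 0.0002), under 1.5-fold at both times, though the 16 h value was called with ERCC scaling (−0.59).

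Prkaca, the alpha form that carries most of the catalytic transcript in these cells, was called in a single treatment contrast. It stood at 218 and 217 TPM in WT CON and 158 and 158 TPM at 16 h of FSK, with all treated WT groups other than FSK at 8 and 16 h between 205 and 226 TPM. In Med14 S983A it went from 192 and 206 TPM in CON to 156 and 150 TPM at 8 h of FSK and 115 and 114 TPM at 16 h. The fall at 16 h of FSK in Med14 S983A was 1.73-fold (log2 −0.79, SE 0.04, limma adjusted p 3.74e-16) and was 1.46-fold with ERCC scaling, which ends the call. In WT the difference at 16 h of FSK was log2 −0.46 (adjusted p 1.95e-11), under 1.5-fold. With ERCC scaling this WT difference was −0.06 (adjusted p 0.575), and after median-centring it was −0.22 (adjusted p 4.61e-05). The WT difference at 8 h was −0.14, which became 0.25 after median-centring. The share of Prkacb in the summed catalytic TPM went from 31.7% ± 1.88 (SD, n = 2) in WT CON to 9.93% ± 0.198 at 8 h of FSK and 20.2% ± 0.666 at 16 h. In Med14 S983A the shares were 31.0% ± 1.88, 10.2% ± 0.116 and 18.3% ± 0.114.

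**Figure D2:**
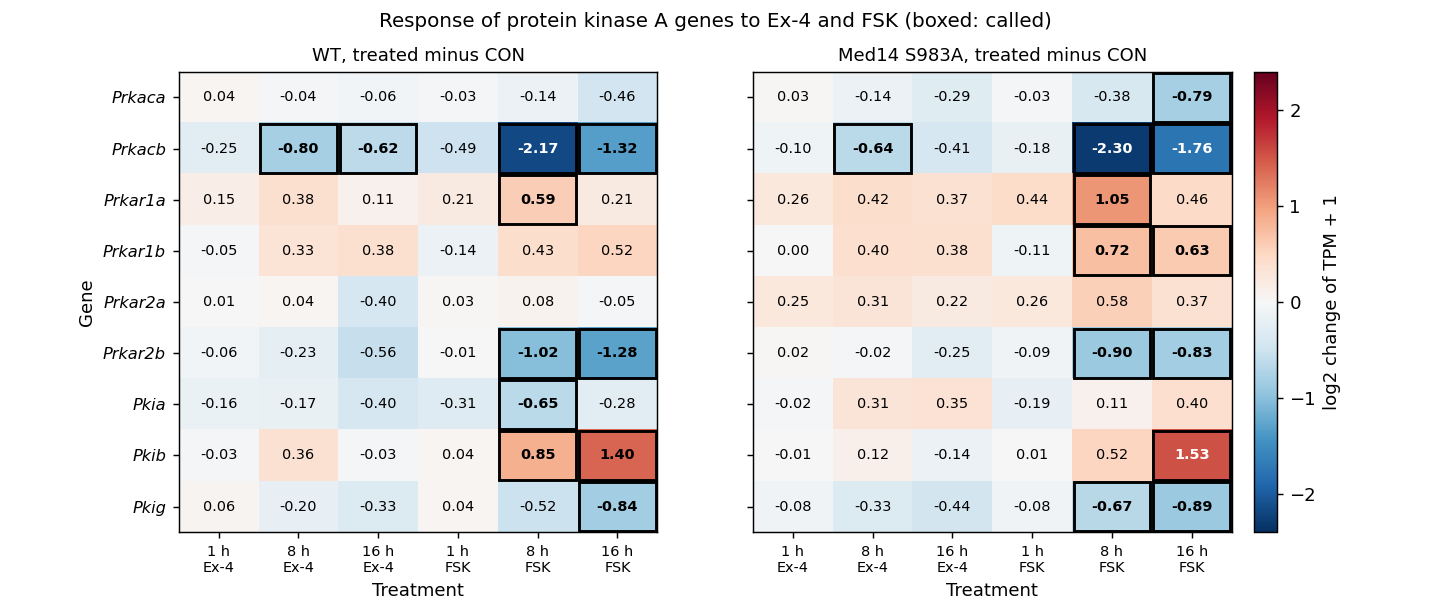
Log2 change of TPM + 1, treated minus CON, for the 9 genes (rows) in the 6 treatments (columns) of WT (left) and Med14 S983A (right). Red is higher and blue is lower than CON, boxed bold values were called, and the boxes lie at 8 and 16 h, 4 of them in the row of Prkacb in WT and 3 in Med14 S983A.

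The type I regulatory genes moved the other way. Prkar1a, the regulatory subunit that every tissue expresses, had 484 and 476 TPM in WT CON, 638 and 610 TPM at 8 h of Ex-4, 703 and 739 TPM at 8 h of FSK and 565 and 546 TPM at 16 h of FSK. In Med14 S983A it had 389 and 364 TPM in CON, 494 and 528 TPM at 1 h of FSK, 775 and 785 TPM at 8 h and 526 and 511 TPM at 16 h. The 8 h FSK libraries were thus the highest of each genotype. At that time Prkar1a rose by 0.59 on the log2 scale in WT (SE 0.04, limma adjusted p 2.36e-13) and 2.07-fold in Med14 S983A (log2 1.05, SE 0.04, adjusted p 1.22e-18). The WT value sits at the fold threshold and dropped under it without replicate 2 of WT CON (1.49-fold) or without replicate 2 of WT 8 h FSK (1.46-fold). The interaction at 8 h of FSK was log2 0.46 (SE 0.05, adjusted p 9.59e-08), under 1.5-fold. At 8 h of Ex-4 the changes were log2 0.38 in WT and 0.42 in Med14 S983A, with adjusted p-values of 6.65e-09 and 1.16e-09, and neither reached 1.5-fold. The difference at 16 h of FSK, log2 0.21 in WT and 0.46 in Med14 S983A, was called with ERCC scaling alone in WT (0.61) and, in Med14 S983A, with ERCC scaling (0.71), after median-centring (0.61) and with DESeq2 (0.59). At 1 h of FSK the Med14 S983A value, log2 0.44, was called after median-centring (0.59) and with DESeq2 (0.60).

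Prkar1b was higher at the late times of both agents. Its WT libraries held 231 and 224 TPM in CON, 293 and 301 TPM at 16 h of Ex-4, 304 and 309 TPM at 8 h of FSK and 325 and 328 TPM at 16 h of FSK. In Med14 S983A they held 152 and 158 TPM in CON, 201 and 201 TPM at 16 h of Ex-4, 261 and 250 TPM at 8 h of FSK and 244 and 235 TPM at 16 h. Limma called the rise in Med14 S983A at 8 h of FSK (log2 0.72, SE 0.04, adjusted p 6.95e-16) and at 16 h (log2 0.63, adjusted p 2.02e-14). In WT the values were log2 0.43 and 0.52, under 1.5-fold in TPM. They were called after median-centring (0.82 and 0.76), with edgeR (0.75 and 0.71) and with DESeq2 (0.78 and 0.74), and the 16 h value also with ERCC scaling (0.92). At 16 h of Ex-4 the values were log2 0.38 in both genotypes, and the WT one was called with ERCC scaling (0.71).

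The type II regulatory genes split. Prkar2b, the type II form of neural, endocrine and adipose tissue, had 42.2 and 39.5 TPM in WT CON, 34.3 and 34.8 TPM at 8 h of Ex-4 and 27 and 27.6 TPM at 16 h. With FSK it had 40.2 and 41.1 TPM at 1 h, 19.9 and 19.4 TPM at 8 h and 15.9 and 16.6 TPM at 16 h. All WT libraries from 8 h on were below CON, and the 1 h FSK libraries lay within the CON range. The fall with FSK in WT was 2.02-fold at 8 h (log2 −1.02, SE 0.05, limma adjusted p 1.33e-15) and 2.42-fold at 16 h (log2 −1.28, SE 0.05, adjusted p 1.83e-17). In Med14 S983A, which started lower at 28.4 and 26 TPM, it fell to 13.8 and 14.4 TPM at 8 h of FSK (log2 −0.90, adjusted p 1.44e-14) and 15.1 and 14.5 TPM at 16 h (log2 −0.83, adjusted p 1.1e-13). The 8 h call in Med14 S983A was lost after median-centring (log2 −0.56). The interaction at 16 h of FSK was log2 0.44 (SE 0.07, adjusted p 1.27e-05), under 1.5-fold. It was 0.29 with ERCC scaling (adjusted p 0.129) and 0.35 after median-centring (adjusted p 8.28e-05). At 16 h of FSK the libraries of the genotypes lay between 14.5 and 16.6 TPM. At 16 h of Ex-4 the WT difference was log2 −0.56 (adjusted p 7.65e-10), just under 1.5-fold, and it was −0.61 without replicate 2 of WT CON, which makes a call. With ERCC scaling it was −0.24 (adjusted p 0.0556), and after median-centring it was −0.38 (adjusted p 2.68e-07).

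Prkar2a, the widely expressed type II form, was called in none of the 12 treatment contrasts by limma in TPM. Its WT libraries lay between 37.0 and 41.8 TPM except at 16 h of Ex-4, where they held 27.2 and 31.7 TPM (log2 −0.40, SE 0.08, limma adjusted p 6.06e-05). With ERCC scaling that difference was −0.08 (adjusted p 0.566), and after median-centring it was −0.22 (adjusted p 0.00802). In Med14 S983A Prkar2a went from 25.1 and 26.1 TPM in CON to 40.8 and 36.8 TPM at 8 h of FSK (log2 0.58, adjusted p 1.55e-07), just under 1.5-fold. That value was called after median-centring (0.91), with edgeR (0.87), with DESeq2 (0.90), with a pseudocount of 0.1 TPM (0.59), without the second Med14 S983A CON library (0.60) and without replicate 2 of Med14 S983A 8 h FSK (0.65). At 16 h of FSK in Med14 S983A it was log2 0.37, called with ERCC scaling (0.61).

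The 3 inhibitor genes responded in different directions. Pkib, the inhibitor form first isolated from testis, had 33.8 and 37.3 TPM in WT CON and 33.9 to 37.7 TPM at 1 h of either agent. Its WT libraries held 43.5 and 48.2 TPM at 8 h of Ex-4 but 34.3 and 35.2 TPM at 16 h. With FSK they held 67.4 and 62.4 TPM at 8 h and 93.1 and 97.7 TPM at 16 h. The FSK libraries at 8 and 16 h did not overlap those of any other WT group. Pkib rose 1.80-fold at 8 h of FSK (log2 0.85, SE 0.07, limma adjusted p 1.84e-11). At 16 h of FSK it rose 2.64-fold (SE 0.07 on the log2 scale, adjusted p 1.08e-15). At 16 h of Ex-4 its difference from CON was log2 −0.03 (adjusted p 0.702). That difference was 0.29 with ERCC scaling (adjusted p 0.0153) and 0.16 after median-centring (adjusted p 0.0447), both under 1.5-fold. In Med14 S983A Pkib stood at 15.9 and 14.3 TPM in CON, 22 and 22.1 TPM at 8 h of FSK and 44.5 and 46.1 TPM at 16 h. Its rise there was 2.88-fold at 16 h (log2 1.53, SE 0.07, adjusted p 1.97e-16). At 8 h it was log2 0.52 (adjusted p 1.37e-07), under 1.5-fold in TPM and called after median-centring (0.86), with edgeR (0.82), with DESeq2 (0.86) and when the first Med14 S983A CON library was left out (0.59). The Pkib interaction was log2 −0.33 at 8 h of FSK (SE 0.10, adjusted p 0.00580) and 0.13 at 16 h (SE 0.10, adjusted p 0.270). For 16 h of Ex-4 it was −0.11 (adjusted p 0.390), and −0.53 with ERCC scaling (adjusted p 0.00176), under 1.5-fold. The median of all genes under that scaling was −0.33.

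Pkig, the widely expressed inhibitor form, fell with FSK in both genotypes. It had 65.8 and 63.4 TPM in WT CON, 45.5 and 44.0 TPM at 8 h of FSK and 35.5 and 35.9 TPM at 16 h, and in Med14 S983A it had 63.3 and 69.5, 39.5 and 43.0, and 35.6 and 34.9 TPM. Limma called the fall at 16 h in WT (log2 −0.84, SE 0.06, adjusted p 3.01e-12) and at 8 and 16 h in Med14 S983A (log2 −0.67 and −0.89, adjusted p 1.5e-10 and 8.96e-13). ERCC scaling ended the WT call (log2 −0.45), and median-centring, edgeR and DESeq2 ended the 8 h call in Med14 S983A (log2 −0.34, −0.41 and −0.37). The interactions for Pkig in TPM were between log2 −0.15 and −0.05, with adjusted p-values of at least 0.136. With ERCC scaling they were −0.54 at 16 h of Ex-4 (adjusted p 0.00102) and −0.39 at 1 h of FSK (adjusted p 0.0474). The medians of all genes under that scaling were −0.33 and −0.27. After median-centring the value at 16 h of Ex-4 was −0.24 (adjusted p 0.0482). All of these were under 1.5-fold. With Ex-4 the changes of Pkig at 16 h were log2 −0.33 in WT and −0.44 in Med14 S983A, under 1.5-fold. With ERCC scaling they were −0.00 (adjusted p 0.981) and −0.55 (adjusted p 9.4e-07). After median-centring they were −0.14 (adjusted p 0.0686) and −0.38 (adjusted p 3.49e-05).

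Pkia, the inhibitor form best known from muscle and brain, had responses of opposite sign in TPM in the genotypes at 16 h of Ex-4 and of FSK, each under 1.5-fold on its own. In WT it had 33.5 and 31.8 TPM in CON, 23.8 and 25.4 TPM at 16 h of Ex-4, 20.5 and 20.4 TPM at 8 h of FSK and 24.5 and 29.0 TPM at 16 h. In Med14 S983A it had 30.3 and 26.5 TPM in CON, 38.3 and 34.5 TPM at 16 h of Ex-4, 31.6 and 29.7 TPM at 8 h of FSK and 38.0 and 37.3 TPM at 16 h. All treated WT libraries were below both WT CON libraries, whereas the Med14 S983A libraries at 16 h of both agents were above both of theirs. The WT values depend on the scaling. With ERCC scaling the WT difference at 16 h of Ex-4 was log2 −0.07 (adjusted p 0.610) in place of −0.40, and at 16 h of FSK it was 0.10 (adjusted p 0.396) in place of −0.28, or −0.04 (adjusted p 0.514) after median-centring. The Med14 S983A difference at 16 h of FSK was 0.64 with ERCC scaling in place of 0.40, which is a call. The only single contrast of Pkia that limma called was the fall at 8 h of FSK in WT (log2 −0.65, SE 0.07, adjusted p 4.92e-09). After median-centring, with edgeR and with DESeq2 that call was lost (log2 −0.26, −0.35 and −0.32).

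The interaction tests asked directly whether a response differed between the genotypes. Limma called 4 of 54 pairs (7.41%), against 7.20% for all genes over the same 6 contrasts. Pkia made up 3 of them, at 16 h of Ex-4 (log2 0.75, SE 0.10, adjusted p 1.83e-06), 8 h of FSK (log2 0.76, SE 0.10, adjusted p 7e-07) and 16 h of FSK (log2 0.68, SE 0.10, adjusted p 2.67e-06). Of all genes 7.24%, 13.9% and 17% were called in these contrasts. Limma called 0 members at 1 h of Ex-4, 8 h of Ex-4 and 1 h of FSK, where 0.672%, 2.77% and 1.64% of all genes were called, with 2, 4 and 3 members at an unadjusted p under 0.05, and edgeR and DESeq2 called 0 there. With ERCC scaling the 2 values at 16 h were not called (0.32, adjusted p 0.0677, for Ex-4 and 0.54, adjusted p 0.00218, for FSK), and that for FSK was 0.56 without replicate 1 of WT 16 h FSK, under 1.5-fold. The fourth was Prkar2a at 16 h of Ex-4 (log2 0.62, SE 0.11, adjusted p 5.98e-05). It rests on few libraries: the value was 0.56, 0.52 and 0.52 without replicate 1 of WT CON, of WT 16 h Ex-4 or of Med14 S983A 16 h Ex-4, under 1.5-fold each time, 0.49 after median-centring, 0.53 with edgeR and with DESeq2, and 0.19 with ERCC scaling (adjusted p 0.267). Under that scaling the median of all genes in this contrast moved from 0.09 to −0.33, and Prkaca, at log2 −0.22 in TPM, was called at −0.66.

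Ex-4 and FSK were then set against each other at matched times. Their concentrations, 10 nM and 10 µM, are not matched doses, so the contrast is of the agents as applied. In 54 pairs limma called 10 (18.5%), against 17.4% for all genes. At 1 h it called 0 members in either genotype, where 1.79% of all genes were called in WT and 3.03% in Med14 S983A, and edgeR and DESeq2 also called 0. At an unadjusted p under 0.05 there were 3 members in WT and 4 in Med14 S983A. At 8 h Prkacb stood higher under Ex-4 than under FSK, by log2 1.37 in WT (SE 0.06, adjusted p 8.53e-16) and 1.65 in Med14 S983A (SE 0.06, adjusted p 9.63e-18), and at 16 h, by 0.70 and 1.34. At 16 h Ex-4 left Pkib below its FSK level, by log2 −1.43 in WT (adjusted p 1.87e-15) and −1.66 in Med14 S983A (adjusted p 1.13e-16). At 8 h its values were −0.49 and −0.40, under 1.5-fold, and were called after median-centring (−0.76 and −0.70), with edgeR (−0.74 and −0.68) and with DESeq2 (−0.75 and −0.71). The other calls were Prkar2b at 8 h in both genotypes (0.78 and 0.88) and at 16 h in WT (0.71), and Prkar1a at 8 h in Med14 S983A (−0.62). Of these, both 8 h values of Prkar2b went under 1.5-fold after median-centring (0.51 and 0.57), the WT one also with edgeR (0.57) and with DESeq2 (0.56), and the Prkar1a value did with ERCC scaling (−0.52). Prkar1b at 8 h in Med14 S983A, at −0.32, was called after median-centring (−0.63), with edgeR (−0.59) and with DESeq2 (−0.61). ERCC scaling alone made calls of Prkar1b at 16 h in Med14 S983A (−0.25 in TPM, −0.61 scaled) and of Pkia at 8 h in WT (0.48 and 0.61). Prkar2b at 16 h in Med14 S983A, at 0.58, was called when replicate 1 was left out of either group (0.59 for Ex-4 and 0.61 for FSK) and with a pseudocount of 0.1 TPM (0.61). Limma called 2 members at 8 h and 3 at 16 h in WT, where 28.1% and 18.7% of all genes were called, and 3 and 2 in Med14 S983A, where 36.5% and 16.3% were.

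The balance of the transcripts within a library does not depend on how libraries are scaled, and it is given here as a description with no test. In WT the summed catalytic TPM per summed regulatory TPM was 0.408 and 0.401 in CON, 0.365 and 0.375 at 1 h of Ex-4, 0.270 and 0.278 at 8 h and 0.312 and 0.315 at 16 h. With FSK it was 0.333 and 0.343 at 1 h, 0.207 and 0.195 at 8 h and 0.209 and 0.214 at 16 h. Every treated WT library was below both CON libraries. In Med14 S983A the ratio was 0.478 and 0.511 in CON, 0.307 and 0.315 at 16 h of Ex-4, 0.159 and 0.154 at 8 h of FSK and 0.171 and 0.177 at 16 h. Thus the Med14 S983A libraries were above those of WT in CON and below them at 8 and 16 h of FSK. Summed catalytic TPM went from 319 ± 10.2 to 198 ± 1.11 TPM (SD, n = 2) between CON and 16 h of FSK in WT and from 289 ± 6.83 to 140 ± 0.127 TPM in Med14 S983A. Summed regulatory TPM went from 788 ± 16.0 to 936 ± 9.48 TPM in WT and from 584 ± 14.1 to 807 ± 19.3 TPM in Med14 S983A. Unlike the ratios, these sums depend on the scaling. With ERCC scaling the log2 changes of Prkaca at 16 h of FSK were −0.06 in WT and −0.55 in Med14 S983A. In TPM they were −0.46 and −0.79. Those of Prkar1a were 0.61 and 0.71 scaled, and 0.21 and 0.46 in TPM.

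Inhibitor transcripts per catalytic transcript were higher at 8 and 16 h of FSK than in CON. The ratio was 0.409 and 0.425 in WT CON, 0.603 and 0.586 at 8 h of FSK and 0.777 and 0.819 at 16 h, and in Med14 S983A it was 0.386 and 0.376, 0.537 and 0.568, and 0.841 and 0.843. At 8 h of Ex-4 it was 0.488 and 0.484 in WT and 0.440 and 0.440 in Med14 S983A, above both CON libraries of each genotype. At 16 h of Ex-4 it was 0.413 and 0.395 in WT, on both sides of the lower CON library, and 0.437 and 0.422 in Med14 S983A. Pkib made up 26.8% ± 1.95 of the inhibitor TPM in WT CON and 60.4% ± 0.492 at 16 h of FSK, and 13.8% ± 1.12 and 38.3% ± 0.917 in Med14 S983A (SD, n = 2). The type II share of the regulatory TPM was 10.2% ± 0.366 in WT CON, 6.49% ± 0.267 at 16 h of Ex-4 and 5.79% ± 0.237 at 16 h of FSK, against 9.04% ± 0.0389, 7.11% ± 0.345 and 5.98% ± 0.204 in Med14 S983A. These are ratios of transcripts, and protein was not measured in these files. Pkib is counted here by 1 of its 3 transcripts. With all 3 summed the inhibitor to catalytic ratio was 0.634 in WT CON and 1.74 at 16 h of FSK, and 0.482 and 1.47 in Med14 S983A.

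**Figure D3:**
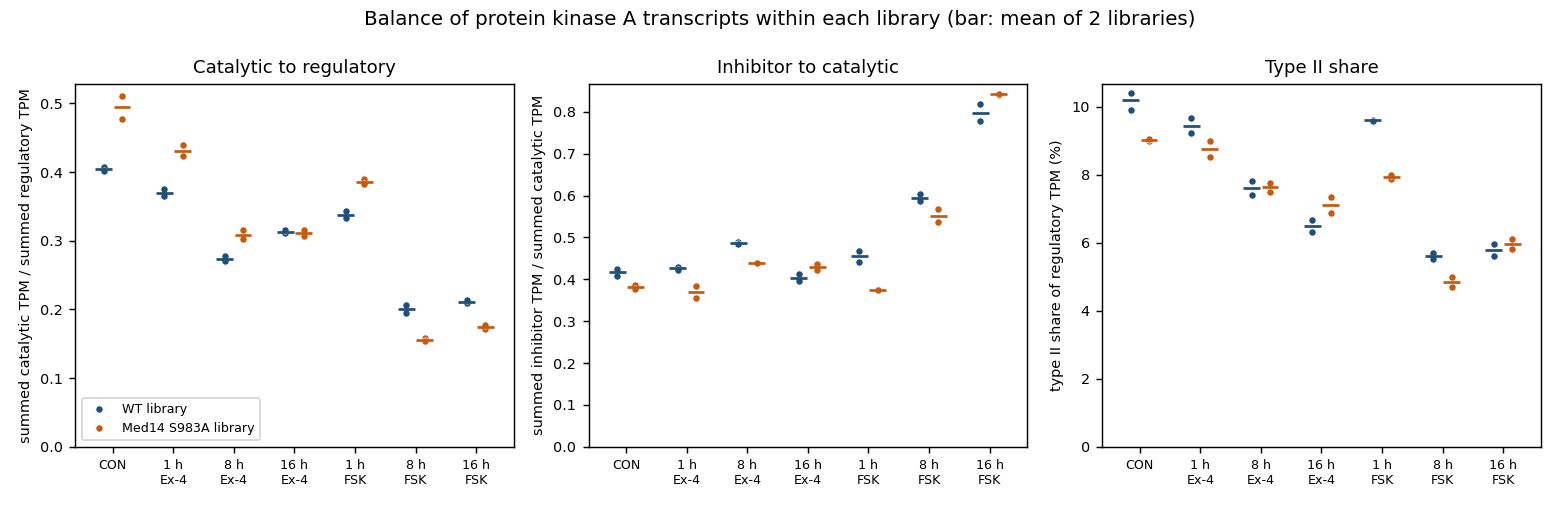
Ratios of summed TPM within each library (vertical axes, starting at 0) in the 7 conditions: catalytic per regulatory, inhibitor per catalytic, and the type II share of regulatory TPM in percent, with 1 point per library and a bar at the mean of 2. The catalytic to regulatory ratio is lowest at 8 h of FSK, 0.201 in WT and 0.156 in Med14 S983A, and the inhibitor to catalytic ratio is highest at 16 h of FSK.

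The genotypes differed in the level of Pkib and, near the threshold, of Prkar2a before any treatment. In CON, limma called 2 of 9 members, both lower in Med14 S983A, where 19.4% of all genes were called. Pkib stood at 33.8 and 37.3 TPM in WT and 15.9 and 14.3 TPM in Med14 S983A, 2.27-fold lower (log2 −1.18, SE 0.07, limma adjusted p 6.56e-14). Prkar2a stood at 41.0 and 37.4 TPM in WT and 25.1 and 26.1 TPM in Med14 S983A, 1.51-fold lower (log2 −0.60, SE 0.08, adjusted p 2.14e-07). The Prkar2a value went under 1.5-fold without replicate 1 of WT CON (1.44-fold) or of Med14 S983A CON (1.48-fold), after median-centring (1.42-fold), with ERCC scaling (1.31-fold), with edgeR (1.44-fold) and with DESeq2 (1.45-fold). Prkar2b (log2 −0.57), Prkar1b (−0.55) and Prkar1a (−0.35) had adjusted p-values of 3.45e-10, 4.8e-13 and 1.12e-08 and were under 1.5-fold. With ERCC scaling they were at −0.37, −0.35 and −0.14, and the adjusted p of Prkar1a was 0.211. The Prkar2b value passed 1.5-fold without replicate 2 of WT CON (−0.62), without the first Med14 S983A CON library (−0.63) and with a pseudocount of 0.1 TPM (−0.59). The catalytic genes and Pkia lay between log2 −0.20 and −0.13, and with ERCC scaling Prkaca, Prkacb and Pkia were at 0.08, 0.03 and 0.00. Pkig was at log2 0.04 (adjusted p 0.599). The median over the 9 members was −0.35, beside −0.07 over all genes.

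Over the mean of all 7 conditions limma called 1 of 9 members, where 17.5% of all genes were called. This was again Pkib, at log2 −1.26 (SE 0.03, adjusted p 2.76e-24), and its Med14 S983A libraries were below the WT libraries of the same condition in all 7 conditions. The other 8 members lay between log2 −0.48 for Prkar1b and 0.22 for Pkia. Gcg, Ins2 and Slc2a2, given above, moved with the same contrast without overlap between the genotypes, as did, with overlap, the summed fibroblast markers, and their part in these differences was not tested. For context, the 25 tested genes on each side of every member were read in the order of the rn6 table. The median difference of these 50 neighbours in CON was −0.05 for Pkib and −0.10 for Prkar2a, and over the 9 members it lay between −0.22 for Prkar1b and −0.00 for Prkacb. Whether a region as a whole differed was not tested.

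**Figure D4:**
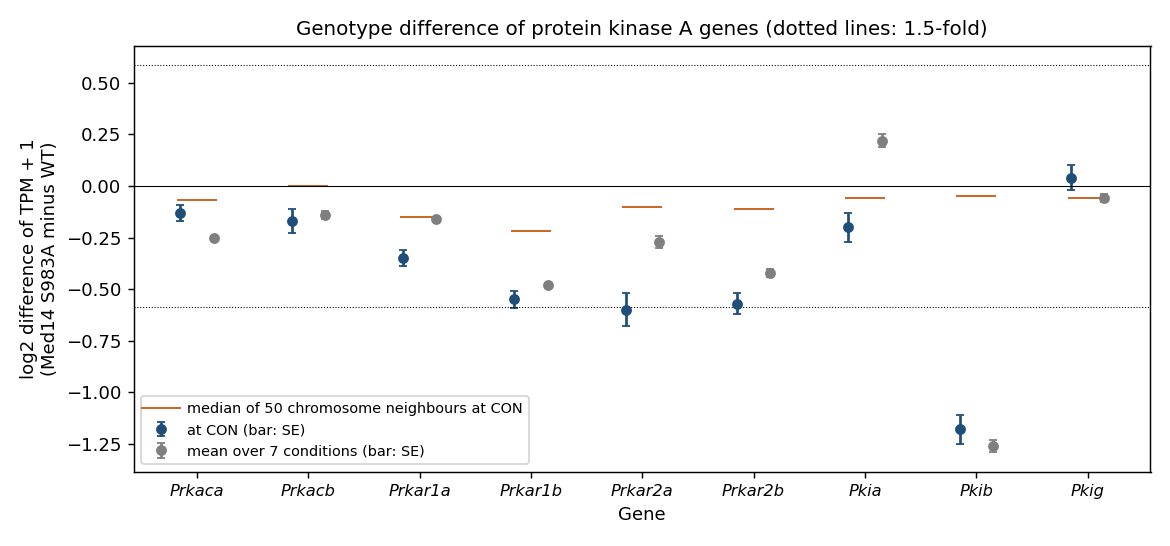
Log2 difference of TPM + 1, Med14 S983A minus WT, for the 9 genes (horizontal axis), in CON (blue) and as the mean over 7 conditions (grey), with bars for the SE. Orange dashes are the median difference in CON of 50 chromosome neighbours and dotted lines mark 1.5-fold. Pkib lies at −1.18 and −1.26, with its neighbours at −0.05.

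The members with the widest range of group means were Pkib (2.72 on the log2 scale) and Prkacb (2.47), and the narrowest was Prkar2a (0.67). Over the 28 libraries the transcripts whose pattern was most like that of Prkacb were Vipr1 (Pearson r = 0.984), the receptor for vasoactive intestinal peptide, Appl2 (0.983), an endosomal adaptor, and Dclk2 (0.982), a doublecortin-like kinase. Those most like Pkib were Dennd2c (0.977), Mvp (0.961), the major vault protein, and Ubash3b (0.957), a tyrosine phosphatase. These r values are descriptions over 28 libraries that share conditions and controls.

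Beyond the kinase itself, 24 genes for A-kinase anchoring proteins, which tether the regulatory subunits to places in the cell, and 8 for other direct cAMP effectors or regulators of the kinase were examined. Of these 32 genes, 3 were not in the table used here, 10 had means under 1 TPM and 19 were tested, and limma called 12 in at least 1 of the 12 treatment contrasts, as it did 68.5% of all genes. In WT, 1 was higher and 6 were lower at 8 h of FSK (43.6% of all genes called) and 1 and 6 at 16 h (34.5%). In Med14 S983A, 4 were higher and 3 lower at 8 h (46.1%) and 1 and 3 at 16 h (33.3%). The medians of the 19 in WT were −0.33 and −0.29, beside −0.34 and −0.20 over all genes.

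The cAMP-activated exchange factor Rapgef4 had 12.5 and 11.6 TPM in WT CON, 3.54 and 3.22 TPM at 8 h of FSK and 4.30 and 4.69 TPM at 16 h. It fell by 1.57 at 8 h on the log2 scale in WT (SE 0.07, limma adjusted p 4.36e-16) and by 1.11 in Med14 S983A (adjusted p 5.05e-13). Map2, a microtubule protein that binds the type II subunits, fell by 1.38 at 16 h of FSK in WT and by 1.13 in Med14 S983A on the same scale, and Sphkap, an anchor for type I subunits, fell by 1.20 and by 0.86. Thus these 3 genes were lower in both genotypes at 16 h of FSK.

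The responses of Akap7, Akap13 and Akap12 differed between the genotypes by the interaction test. These genes were named for the size of their called changes. By this test limma called 3 of the 19 tested genes at 8 h of FSK and 3 at 16 h. Of all genes 13.9% and 17% were called there. At 1 h of FSK limma called 1 (1.64% of all genes) and at 16 h of Ex-4 it called 2 (7.24%). At 1 and 8 h of Ex-4 it called 0. Between the untreated genotypes it called 2 with a positive and 3 with a negative difference, beside 19.4% of all genes. What follows is about single genes. Akap7, an anchor at the plasma membrane, had 13.9 and 15 TPM in WT CON, 10.3 and 8.89 TPM at 8 h of FSK and a mean of 4.70 ± 0.829 TPM (SD, n = 2) at 16 h, but 8.53 and 9.26, 17.4 and 17.1, and 8.74 and 8.93 TPM in Med14 S983A. Its interaction with FSK was log2 1.43 at 8 h and 1.44 at 16 h (SE 0.13, limma adjusted p 1.46e-09 and 8.51e-10). Akap13, an anchor that is also a guanine nucleotide exchange factor, had 20.1 and 20.2 TPM in WT CON against 9.89 and 9.50 TPM in Med14 S983A CON (log2 −0.98, adjusted p 1.83e-12), and its interaction at 16 h of FSK was log2 0.82 (adjusted p 7.87e-08). Akap12, a scaffold for the kinase at the cell membrane, had 42.6 and 39.9 TPM in WT CON, 62.4 and 63.7 TPM at 1 h of FSK, and 68.4 and 65.2 TPM and 146 and 177 TPM in Med14 S983A. It was the only gene of these lists that limma called at 1 h, where it rose with FSK, by log2 0.60 in WT (adjusted p 1.51e-08) and 1.26 in Med14 S983A (adjusted p 8.1e-15), with an interaction of 0.65 (adjusted p 1.1e-05). The WT rise was 0.55, under 1.5-fold, without replicate 2 of WT CON. The interaction was 0.38 with ERCC scaling (adjusted p 0.0507) and 0.52 without replicate 2 of Med14 S983A 1 h FSK, which ends the call both times. At 1 h of Ex-4 Akap12 rose by log2 0.31 in WT (adjusted p 0.000556) and 0.56 in Med14 S983A (adjusted p 1.26e-07), under 1.5-fold. The Med14 S983A value was called after median-centring (0.61), with edgeR (0.61) and with DESeq2 (0.64). At 16 h of Ex-4 limma called its rise in WT (log2 0.68, adjusted p 1.05e-09). Pja2, a ubiquitin ligase that degrades regulatory subunits, had 51.9 and 51.8 TPM in WT CON and 102 and 90.0 TPM in Med14 S983A CON (log2 0.87, SE 0.05, adjusted p 3.12e-14).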

How the data were processed

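Bulk RNA-seq of 28 libraries was analysed from the processed tables. The authors aligned reads to rn6 and the ERCC sequences with STAR 2.5.3a and deposited TPM per RefSeq transcript from HOMER 4.11.1, not scaled on the ERCC. The deposited Length column is exon length in bases, and the deposited counts are of the 92 ERCC sequences alone. Columns were matched to groups by genotype, treatment, hours and replicate in their names. The transcript of highest mean TPM stood for each symbol. Pkib has 3 transcripts, and how far their exons overlap was not examined.

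Log2(TPM + 1) was fitted for the 10275 genes whose mean reached 1 TPM, with limma 3.58.1 (trend, two-sided) in R 4.3.3, with 14 group means and 14 residual degrees of freedom. Each contrast had its own Benjamini-Hochberg adjustment. Genes were called at an adjusted p under 0.05 and above 1.5-fold. The study states DESeq2 on gene counts with ERCC size factors, and gene counts were not used here. TPM multiplied by length and scaled to the ERCC counts gave recovered fragments (largest ERCC difference 0.0663 counts), used with edgeR 4.0.16 and DESeq2 1.42.0. Both tools then took their library scaling from the genes, as median-centring does, and not from the ERCC counts. Calls shared by edgeR, DESeq2 and median-centring are thus not independent of each other. Other settings were median-centring, ERCC scaling, a pseudocount of 0.1 TPM, other filters, the replicate number as a block, sums over transcripts and leaving out each library. The scripts were tested on simulated data. Replicates differed by more than counting error in every group (chi-square per degree of freedom 2.46 to 9.74).

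Members and lists were chosen with earlier results of these data known. The text names all 9 members, Med14, up to 6 anchoring or effector genes by largest called treatment change, up to 4 by largest called CON difference, and the 3 genes most like each of the 2 most variable members. A marker gene that was examined is not reported here.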

Additional observations from a re-analysis of the deposited data

Results flagged for a closer look

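In 4 of 54 pairs (7.41%, against 7.20% for all genes) the response to a treatment differed between the genotypes by the limma interaction test. The value is Med14 S983A minus WT of the treated minus CON difference in log2(TPM + 1). For Pkia the difference was 0.75 at 16 h of Ex-4, 0.76 at 8 h of FSK and 0.68 at 16 h of FSK. For Prkar2a it was 0.62 at 16 h of Ex-4. With ERCC scaling the Pkia interactions were 0.32 (adjusted p 0.0677), 0.65 (adjusted p 0.000171) and 0.54 (adjusted p 0.00218) in the same order. For Prkar2a that scaling gave 0.19 (adjusted p 0.267), and only the Pkia value at 8 h of FSK kept its call. The Pkia response itself was −0.40 in WT and 0.35 in Med14 S983A at 16 h of Ex-4, −0.65 and 0.11 at 8 h of FSK, and −0.28 and 0.40 at 16 h of FSK. With ERCC scaling the WT response of Pkia was −0.07 (adjusted p 0.610) at 16 h of Ex-4 and 0.10 (adjusted p 0.396) at 16 h of FSK. For Prkar2a the responses at 16 h of Ex-4 were −0.40 in WT and 0.22 in Med14 S983A. With ERCC scaling they were −0.08 (adjusted p 0.566) and 0.11 (adjusted p 0.391). Groups of 2 libraries are too small to look for a single library far from the others.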

How the results depend on the processing

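Of 234 pairs of a member and a contrast, 40 were called, 26 kept their call in all of 38 other settings that held the fold minimum, and 14 lost it in at least 1, while 20 others gained one. No called pair changed sign, but 15 pairs under 1.5-fold whose adjusted p was under 0.05 did. With ERCC scaling these were Prkaca (0.08), Prkacb (0.03) and Pkia (0.00) for genotype at CON, the interactions of Prkar1a (−0.19) and Prkar2b (−0.12) at 16 h of Ex-4 and of Prkar1a (−0.04) at 1 h of FSK, Prkar1a (0.02, Med14 S983A, 1 h) and Prkar1b (0.03, WT, 8 h) for Ex-4 against FSK, and Pkia at 16 h of FSK in WT (0.10). After median-centring, with edgeR and with DESeq2 they were Prkaca at 8 h of FSK in WT (0.25, 0.18 and 0.21), Prkar1b at 1 h of FSK in Med14 S983A (0.04, 0.01 and 0.05) and, for Ex-4 against FSK at 8 h, Prkaca in WT (−0.16, −0.13 and −0.14) and in Med14 S983A (−0.07, −0.02 and −0.05) and Pkia in Med14 S983A (−0.10, −0.05 and −0.08). With DESeq2 Prkar1b at 1 h of FSK in WT was 0.00. Without the fold minimum the called pairs numbered 36 for treatment in WT, 39 in Med14 S983A, 8 for genotype at CON, 9 over 7 conditions, 21 for interactions and 35 for Ex-4 against FSK, in place of 11, 12, 2, 1, 4 and 10, and 60.4%, 59.1%, 66.2%, 85.5%, 29.9% and 55.7% of all genes passed. Genotype calls at CON numbered 1 after median-centring, with ERCC scaling, with edgeR and with DESeq2. Leaving out each library in turn gave 10 to 11, 12 to 13, 1 to 3, 1 to 1, 3 to 4 and 10 to 11 called pairs in the same order. Filters of none (14852 genes) or a mean of 5 TPM (8833 genes) changed no call of a member, nor did fits with only the libraries of a contrast, which give no other value over 7 conditions. The replicate number as a block changed no call either, giving 11, 12, 2, 1, 4 and 10. The numbers did not pair the samples, since replicate differences of 91 pairs of groups correlated at −0.28 to 0.283 (median 0.00346), 17 of them over 0.1. Summing the 3 transcripts of Pkib may count shared reads repeatedly. It gave inhibitor sums of 202, 343, 139 and 206 TPM, inhibitor to catalytic ratios of 0.634, 1.74, 0.482 and 1.47, and Pkib shares of 51.8%, 81.8%, 31.9% and 64.7% for WT CON, WT 16 h FSK, Med14 S983A CON and Med14 S983A 16 h FSK.

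With 2 libraries a group, small differences near 1.5-fold depend on single libraries. The spike-in was added to RNA after extraction, so that scaling is per RNA mass and not per cell.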
